A study of Rattus norvegicus with 15 samples.

Results

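The comparison described here sets rat H9c2 cells harvested on day 14 of differentiation without retinoic acid (RA) against H9c2 cells on day 0. It takes 6 of the 15 RNA-seq libraries of the series, 3 cultures labelled day 14 without RA (T14-RA) and 3 labelled day 0 without RA (T0), and covers all 11574 genes of the deposited count table. H9c2 is an established myoblast line from embryonic rat heart, and the labels give heart myocardium as its tissue and wild type as its genotype. The series asked how much of H9c2 differentiation goes with time in culture and how much with RA, and its 5 groups of 3 cultures were harvested on day 0, day 7 or day 14, with or without RA at 1 µM. Day 0 stands for cells 24 h after seeding, the time allowed for attachment in medium with 10% fetal bovine serum (FBS). The serum was then lowered to 1% FBS, and the T14-RA cells were kept in it until day 14 and received no RA. Time in culture, the lower serum and any change in cell density came together in this design, so that their effects cannot be told apart. Every title names H9c2, whereas the cell line field of the labels reads H9c2 for the T0 cultures and H9c6, H9c7 and H9c8 for the T14-RA cultures. All 6 cultures are taken here as H9c2. The labels do not say whether the T14-RA medium held the solvent of RA.

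Myoblasts are muscle precursors that divide in rich medium. When serum is withdrawn they leave the cell cycle, the transcription factor myogenin switches on muscle genes, neighbouring cells fuse into multinucleated myotubes, and the sarcomere, the calcium release machinery and the acetylcholine receptors of the future nerve contact are built. H9c2 cells came from heart tissue but are known to form myotubes that carry genes of skeletal muscle as well as of heart.

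The table lists raw counts per gene. The T0 libraries held 508397 to 768431 counts and the T14-RA libraries 551209 to 823546, a shallow depth at which only large changes of weakly expressed genes can be seen. With counts simulated from these libraries and a change of 1 on the log2 scale, 53 of 99 altered genes at or above the median count passed the test and 5 of 101 below it. That simulation altered only 200 of the 11574 genes and gave all groups the same spread for each gene. Its shares therefore do not give the recovery in the measured comparison. T0 libraries differed from one another more than T14-RA libraries did, with a chi-square per gene of 2.06 to 3.09 between pairs of T0 libraries and 1.07 to 1.32 between pairs of T14-RA libraries. Levels are given as TMM-scaled CPM, each gene's count relative to the total of its library after scaling, in the order of replicates 1, 2 and 3. Fold changes are log2(T14-RA) minus log2(T0) from edgeR's quasi-likelihood test with their standard error (SE), and a gene was called changed at a Benjamini-Hochberg adjusted p under 0.001 over all genes. The test pooled the spread of each gene over all 5 groups, so SEs and p-values may understate the spread between T0 libraries. Bulk RNA cannot tell fewer cells of a type from less RNA per cell.

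Of the 11574 genes, 1813 (15.7%) were called, 906 of them higher (7.83% of all genes) and 907 lower (7.84%) at T14-RA. The direction was balanced in number under the scaling used. With library size alone as the scaling, 1114 genes rose and 747 fell, and the median log2 fold change of all genes moved from 0.04 to 0.14. The sizes of the changes were not balanced. A rise of more than 2 on the log2 scale was found for 268 genes and a fall of that size for 83, and beyond 4 there were 122 genes that rose and 3 that fell. Among the genes that rose, 53 had no count in any T0 library, and 53 more had 1 to 3 counts over the 3 T0 libraries. The fitted fold of such genes depends on the prior count, and with each set to its lower bound 254 genes rose and 82 fell by more than 2, and 52 rose and 2 fell by more than 4. A gene counted only after day 0 could enter the deposited table through 12 libraries and a gene counted only at T0 through 3. Only 1 gene that fell had no count at T14-RA, AABR07034767.1, a predicted protein-coding gene without a given name, with levels of 20.7, 30.0 and 18.9 CPM at T0. Against a floor of 3 counts over the group it was at least 15.3-fold lower. Of the 97 long intergenic non-coding RNAs tested, 4 rose and none fell.

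**Figure D1:**
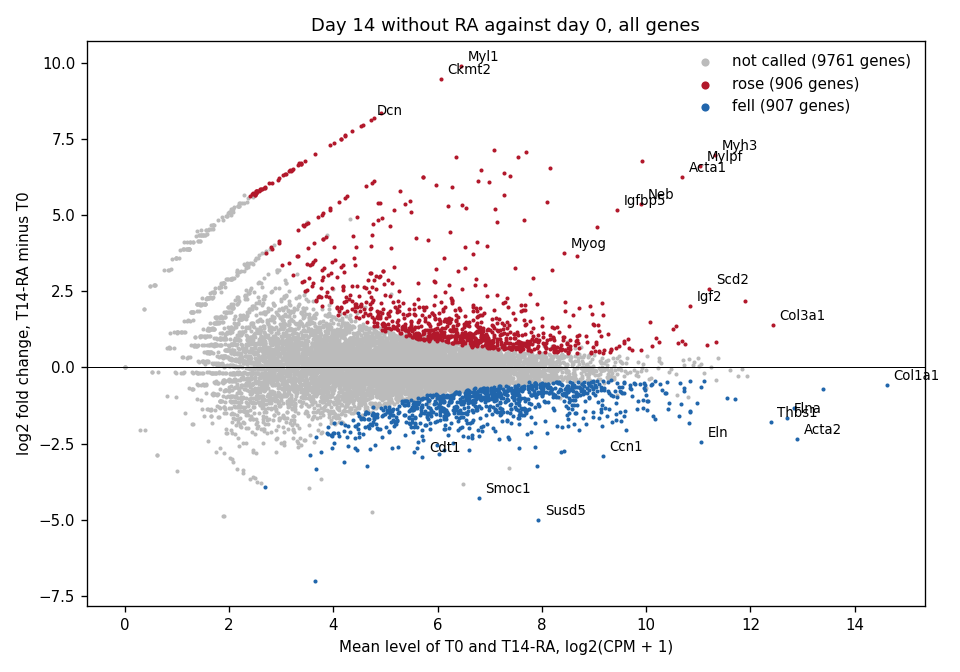
Each point is 1 gene, with its mean level in T0 and T14-RA as log2(CPM + 1) on the x axis and its fitted log2 fold change, T14-RA minus T0, on the y axis; red points rose and blue points fell at an adjusted p under 0.001. There are 122 red points above 4 and 3 blue points below −4, or 52 and 2 with low counts at their lower bound, and the diagonal rows at the upper left are genes with 0 or few counts at T0, whose fitted values depend on the prior count of the fit.

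Among the 15 genes with the largest fitted fold rise were Myl1, Ckmt2, Trim72, Sln, Dcn, Mymx, Actn3, Actn2, Acacb, Ampd1, Art1, Trdn, Lum and Myom2. All of these but Myom2 had no count at T0, so their rank depends on the prior count of the fit. Against the floor, Lum was at least 16.6-fold higher. Most are known from the contraction, calcium handling or energy supply of skeletal muscle. Trim72, which patches torn muscle membrane, reached 68.5, 58.4 and 49.1 CPM and was at least 34.6-fold higher. Ampd1, the AMP deaminase of muscle, reached 28.8, 40.7 and 37.3 CPM. Art1, an ADP-ribosyltransferase of the muscle surface, was at 27.6, 42.5 and 30.5 CPM.

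Genes of the sarcomere, the contractile unit, had the largest median change of 31 gene lists. Of the 15 genes measured from a list of skeletal muscle sarcomere genes, 12 rose, Tpm3 fell and 2 were not called, and the median log2 fold change was 6.33, or 6.10 with the genes at 0 in T0 set to their lower bound. These genes took 0.110% ± 0.00526 (SD, n = 3) of all counts at T0 and 1.81% ± 0.0346 at T14-RA, which is 16.4 times as much. Myh3, the embryonic myosin heavy chain and a motor of the thick filament, was at 35.9, 30.0 and 56.6 CPM at T0 and 4937, 5021 and 5209 CPM at T14-RA, a log2 fold change of 6.98 (SE 0.15, adjusted p = 3.31e-46 in edgeR). It had the largest rise in mean CPM of all called genes, closely followed by Col3a1, with means of 3028 ± 258 (SD, n = 3) and 8032 ± 187 CPM. The order of these genes is within the spread of the replicates. Mylpf, a regulatory light chain of fast skeletal myosin, went from 33.1, 43.2 and 54.5 to 4142, 4302 and 4072 CPM. Myl1, an alkali light chain of the same motor, had no count in any T0 library and 177, 193 and 147 CPM at T14-RA, at least 99.8-fold higher against the floor of 3 counts over the group. Acta1, the actin of the skeletal thin filament, went from 52.4, 41.3 and 31.4 to 3375, 3084 and 3314 CPM. For Myh3, Mylpf, Myl1 and Acta1 the lowest T14-RA library was far above the highest T0 library. Groups that do not overlap were common, with 21.5% of all genes higher and 19.1% lower in every T14-RA library than in any T0 library.

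Genes of the troponin complex, the calcium switch of the thin filament, rose in fast skeletal, slow skeletal and cardiac forms. Tnnt3, the fast troponin T, rose from 17.9, 13.1 and 21.0 to 1721, 2023 and 2052 CPM, a log2 fold change of 6.79 (SE 0.16). Tnni1 and Tnni2, the slow and fast troponin I, rose together. Tnni1 went from 2.76, 3.75 and 2.10 to 389, 429 and 408 CPM, and Tnni2 from 1.38, 5.63 and 2.10 to 339.9, 407 and 357 CPM. Tnnt1, the slow troponin T, was not called. Tnnt2, the cardiac troponin T, rose less, from 63.5, 54.4 and 60.8 to 670.2, 822 and 769 CPM, a log2 fold change of 3.65 (SE 0.14). Tnnc1, the troponin C of heart and slow muscle, was already expressed at T0 and rose from 475, 735 and 440.2 to 1071, 1141 and 964 CPM. Of the 7 genes measured from a list of 18 cardiac sarcomere genes, 5 rose and none fell. They include Myl4, the atrial and embryonic light chain, at 4.14, 3.75 and 10.5 CPM before and 508, 608 and 562 CPM after, and Actc1, the cardiac actin, at 4.14, 3.75 and 2.10 and 239, 234 and 276 CPM. The defining heart genes Myh6, Myh7, Tnni3, Nppa, Nppb and Nkx2-5 were not analysed here, so that the labelled tissue could not be checked with them. Of 6 measured transcription factors of heart development, including Gata4 and Hand2, none rose, which with 6 genes cannot be told from the 7.83% of all genes. The list held only 284 counts over the T0 libraries and 232 over the T14-RA libraries. Myocd, the coactivator myocardin, fell by 0.97 on the log2 scale. That call was lost without the first T0 library (adjusted p = 0.0659 in edgeR) and without the second or the third T14-RA library (adjusted p = 0.00305 and 0.00304). The fall of Myocd lost its call in 9 of 18 alternatives, among them DESeq2, limma-voom and limma-trend.

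**Figure D2:**
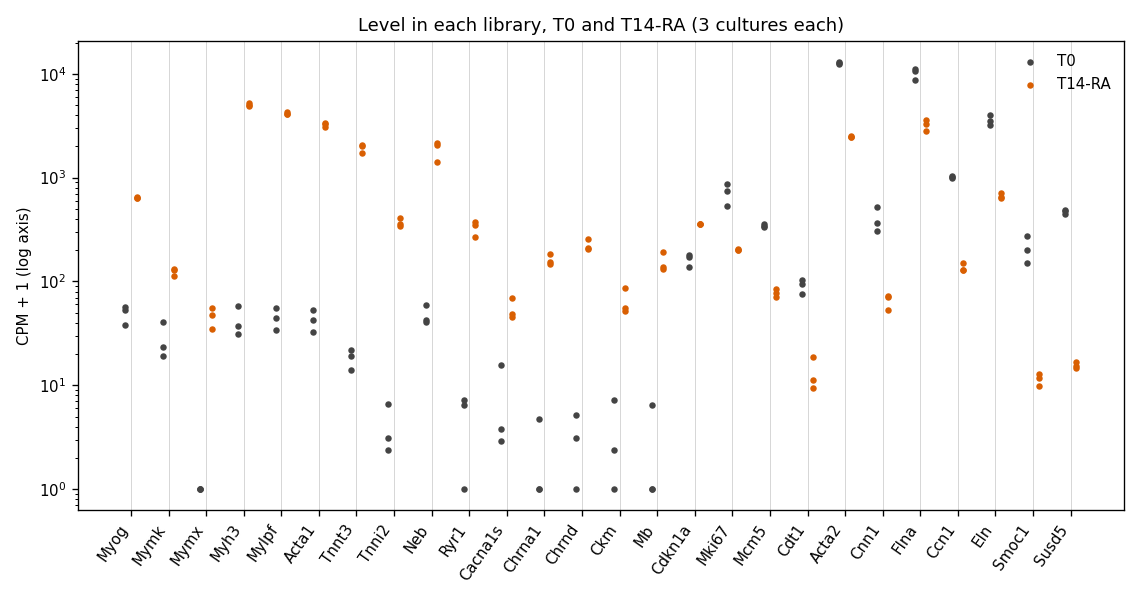
Every point is 1 library, with the gene on the x axis and CPM + 1 on a logarithmic y axis, grey for T0 and orange for T14-RA (3 cultures each). The groups do not overlap for any of the 26 genes drawn, and from Myog to Cdkn1a the orange points lie above the grey ones while from Mki67 to Susd5 they lie below.

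Levels within a gene family were compared per length, as TPM, the count divided by the deposited gene length and scaled to the same sum in every library. Among troponin T genes, the share of Tnnt2 went from 68.3% ± 7.29 (SD, n = 3) of family TPM at T0 to 25.8% ± 0.725 at T14-RA, and that of Tnnt3 from 21.7% ± 3.13 to 73.1% ± 0.921. Troponin C was 92.3% ± 0.210 Tnnc1 at T0 and close to evenly split at T14-RA, with 48.5% ± 1.13 Tnnc1 and 51.5% ± 1.13 Tnnc2. In the actins of muscle and smooth muscle, Acta1 rose from 0.288% ± 0.0675 to 51.0% ± 1.52 of family TPM, while the smooth muscle actin Acta2 fell from 90.8% ± 0.858 to 40.4% ± 1.24. Cardiac Actc1 stayed a minor form, with 3.77% ± 0.324 at T14-RA. Within the sarcomeric myosin heavy chains Myh3, Myh4 and Myh8, Myh4 held 91.5% ± 2.21 at T0 and 7.87% ± 1.26 at T14-RA, and Myh3 8.47% ± 2.21 and 91.8% ± 1.39. Myh4, a fast adult myosin, hardly moved in level, with 452, 396 and 457 CPM at T0 and 491, 351 and 461 CPM at T14-RA. The pore of the L-type calcium channel was 90.1% ± 8.74 cardiac Cacna1c at T0 and 53.9% ± 1.60 at T14-RA, with skeletal Cacna1s making up the rest. The level of Cacna1c was 18.4, 14.4 and 22.2 TPM at T0 and 21.8, 18.7 and 27.4 TPM at T14-RA, and these ranges overlap. Calsequestrin was still 78.9% ± 0.307 cardiac Casq2 at T14-RA, from 94.2% ± 2.11 at T0, and of the calcium pump genes Atp2a2 and Atp2a3 the share of Atp2a2 was 99.0% ± 0.355 at T0 and 99.1% ± 0.357 at T14-RA. Enolase shifted from Eno1 towards the muscle form Eno3, which held 8.50% ± 1.50 at T0 and 38.3% ± 1.80 at T14-RA. Tnni1 held 44.7% ± 1.19 of troponin I at T14-RA, while at T0 its share of 44.6% ± 13.5 rests on too few counts (5 of Tnni1 and 5 of Tnni2 over 3 libraries) to show whether the split moved. Actins and myosin heavy chains are close in sequence, and reads shared by near-identical copies could have been split or lost in counting, so these shares are uncertain for them.

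**Figure D3:**
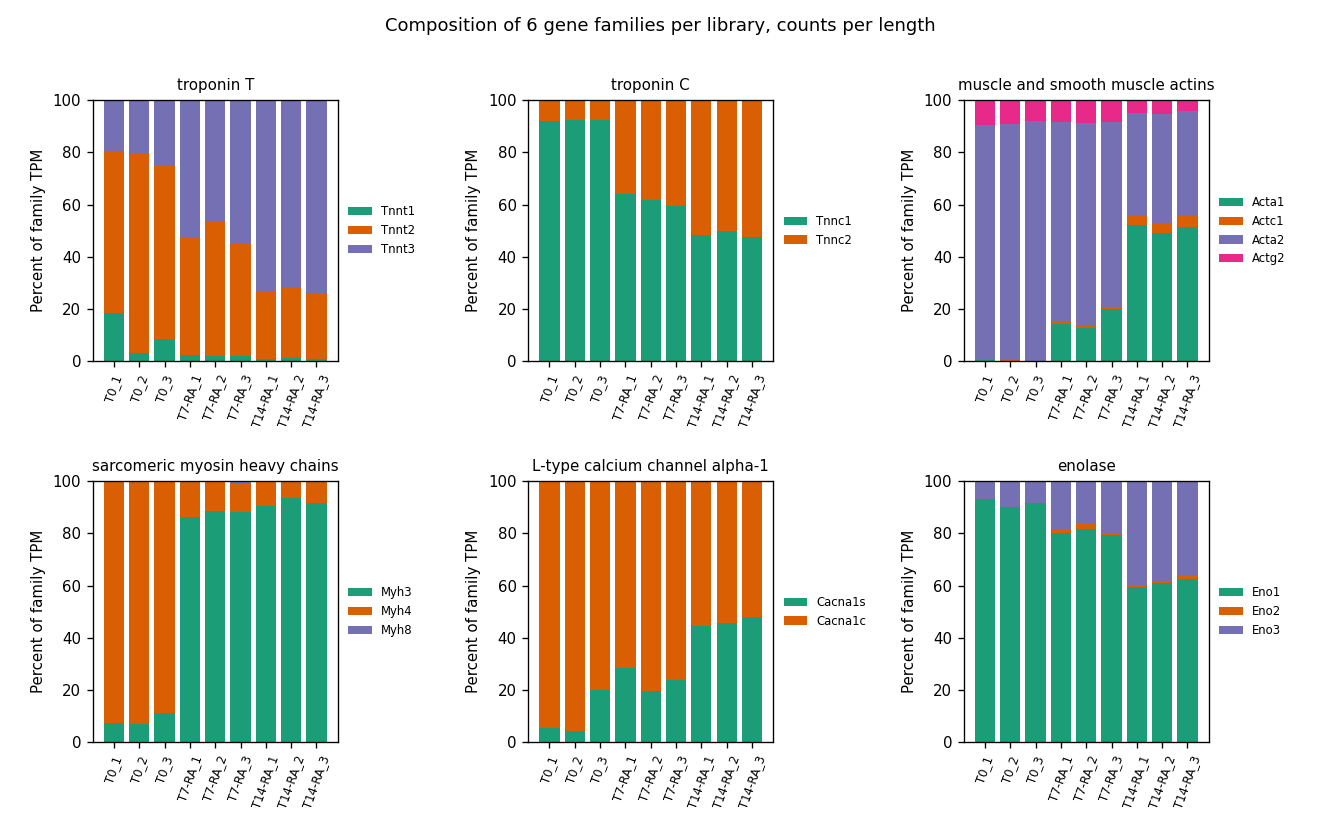
Stacked bars give the percent of family TPM held by each gene in each library of T0, T7-RA (day 7 without RA) and T14-RA for 6 gene families. The skeletal forms Tnnt3, Tnnc2, Acta1, Cacna1s and Eno3 take a larger mean share at T14-RA than at T0, and Acta1 holds a mean of 51.0% of the actins shown at T14-RA against 0.288% at T0.

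Genes for the Z-disc, the M-band and the sarcomere scaffold also rose. Of 32 measured genes in this list 23 rose and Pdlim5 fell, with a median log2 fold change of 2.52. Neb, the giant ruler protein nebulin of the thin filament, went from 41.4, 39.4 and 58.7 to 2140.5, 1419 and 2069 CPM, with the second T14-RA library below the other two. Myom2, an M-band protein, had 3 counts over the T0 libraries and 530 over the T14-RA libraries, a ratio of 154 with an exact 95% interval of 52.5 to 750.1 for counting error. Unc45b, a chaperone of myosin folding, rose from 2.76, 3.75 and 4.19 to 159, 120.4 and 147 CPM. Actn2 and Actn3, the sarcomeric alpha-actinins, had no count at T0 and reached 45.6, 24.8 and 47.4 and 48.0, 37.2 and 47.4 CPM. Des, the muscle intermediate filament desmin, rose from 9.66, 7.50 and 0 to 39.6, 37.2 and 44.0 CPM.

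Regulators of the muscle programme moved in opposite directions. Of 17 measured genes in the list of myogenic transcription factors and their partners, 3 rose and 3 fell. The list's median changed sign when libraries were left out. Myog, which encodes myogenin, rose from 37.2, 56.3 and 52.4 to 639, 645 and 632 CPM, a log2 fold change of 3.74 (SE 0.15, adjusted p = 9.55e-32 in edgeR). Mef2a, a partner of the myogenic factors, rose from 78.6, 67.5 and 69.2 to 210.2, 174 and 268 CPM. Myod1, the determination factor that marks myoblasts, was at 124, 150.1 and 71.3 CPM at T0 and 63.7, 95.6 and 81.3 CPM at T14-RA, with a log2 fold change of −0.57 that was not called (adjusted p = 0.0155); without the third T0 library it was −0.78 and passed (adjusted p = 0.000626 in edgeR). The inhibitors of myogenic factors Id1, Id2 and Id3 were lower, and Id3 fell from 265, 287 and 231 to 84.1, 97.4 and 79.6 CPM. The call of Id1 was lost without the first T14-RA library (adjusted p = 0.00403), and that of Id2 without any 1 of the 6 libraries (adjusted p between 0.00160 and 0.00900).

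Genes of cell fusion were split as well. Of 22 measured genes of fusion and adhesion, 8 rose and 6 fell. Both muscle-restricted genes of the fusion step rose. Mymk, which encodes myomaker, rose from 17.9, 22.5 and 39.8 to 129, 112 and 130.4 CPM, and Mymx, which encodes myomixer, from no count to 46.8, 54.9 and 33.9 CPM. Vcam1, an adhesion receptor of myoblasts, was also absent from the T0 counts and reached 25.2, 14.17 and 15.2 CPM. Adam12, a metalloprotease of myoblasts, fell from 582, 597 and 606 to 114, 51.4 and 94.8 CPM. Cdh15, the M-cadherin of myoblast contacts, fell from 636, 619 and 658 to 364, 296 and 312 CPM, and Itgb1, the common beta integrin chain, fell by 0.64 on the log2 scale.

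Excitation-contraction coupling links the membrane signal to calcium release. Of 29 measured genes 15 rose and 4 fell, with a median log2 fold change of 1.11. Ryr1, the calcium release channel of skeletal muscle, rose from 5.52, 0 and 6.29 to 347, 269 and 374 CPM, a log2 fold change of 6.30 (SE 0.34). Its voltage sensor Cacna1s rose from 2.76, 1.88 and 14.7 to 48.0, 44.3 and 67.7 CPM, and the channel subunit Cacnb1 from 9.66, 9.38 and 12.6 to 129.7, 119 and 134 CPM. Stac3, an adaptor of the sensor, had 2 counts over the T0 libraries and 52.9, 54.9 and 62.7 CPM at T14-RA. Sln, the sarcolipin that slows the calcium pump, and Trdn, the triadin of the release unit, had no count at T0 and were at 54.1, 58.4 and 47.4 and 30.0, 26.6 and 33.9 CPM at T14-RA. Casq1, the skeletal calcium store protein, rose by 3.25 on the log2 scale and its cardiac relative Casq2 by 1.11. The pump gene Atp2a2 was high from the start and rose from 881, 759.8 and 876 to 1392, 1344 and 1341 CPM. Those that fell included Fkbp1a and Calr, which serve calcium signalling in most cell types.

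Some genes of the nerve contact rose in these cultures without nerve. Of 14 measured genes of the acetylcholine receptor and the neuromuscular junction, 5 rose and none fell. Chrna1, the receptor subunit that binds acetylcholine, had 2 counts over the T0 libraries, both in replicate 2, and 151, 182 and 146 CPM at T14-RA. Chrnd, the delta subunit, went from 4.14, 0 and 2.10 to 205, 211 and 257 CPM. Lrp4, the receptor for nerve-derived agrin, rose from 101, 63.8 and 94.3 to 335, 317 and 303 CPM. Ache, the enzyme that breaks acetylcholine down, and Erbb3, a neuregulin receptor, were the other two. In the dystrophin-glycoprotein complex, 5 of 17 measured genes rose and 1 fell, and without the first T14-RA library 3 rose, while without the second none fell.

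Promoter sequences are shown for 3 of the muscle genes because myogenin and its relatives bind E-boxes, and serum response factor binds CArG boxes. They are the 250 bases before the annotated start, 5′ to 3′ on the gene's strand, from RefSeq's GRCr8 assembly, while the counts were made on Rnor_6.0. Acta1 lies on the minus strand at chr19:68784195-68784444, and its capitals mark an E-box CAGCTG, a CArG box and the TATAAA run. Chrna1 lies on the minus strand at chr3:78877354-78877603, with E-boxes of the forms CAGCTG and CACCTG (the latter on the other strand). Ckm, the muscle creatine kinase gene, lies on the plus strand at chr1:88189211-88189460, with CAGCTG in capitals.
Acta1: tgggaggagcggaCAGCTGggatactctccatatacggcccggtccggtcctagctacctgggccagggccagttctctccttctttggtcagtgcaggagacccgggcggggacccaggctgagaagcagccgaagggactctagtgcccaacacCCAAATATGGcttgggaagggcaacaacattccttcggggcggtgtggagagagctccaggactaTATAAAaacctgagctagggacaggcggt
Chrna1: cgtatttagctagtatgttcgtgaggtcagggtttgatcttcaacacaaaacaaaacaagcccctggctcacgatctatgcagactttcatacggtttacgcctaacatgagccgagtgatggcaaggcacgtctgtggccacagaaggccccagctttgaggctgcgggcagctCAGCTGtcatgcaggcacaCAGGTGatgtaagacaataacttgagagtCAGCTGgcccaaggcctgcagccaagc
Ckm: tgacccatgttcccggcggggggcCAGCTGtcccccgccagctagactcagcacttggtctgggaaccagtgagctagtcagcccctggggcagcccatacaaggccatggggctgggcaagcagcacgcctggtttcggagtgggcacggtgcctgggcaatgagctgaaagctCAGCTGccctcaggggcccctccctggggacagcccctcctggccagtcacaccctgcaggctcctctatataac

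All windows of 300 bases, from 250 before to 50 after the start, were searched on both strands for 9 motifs, and 8079 of the 11547 gene symbols tested had 1 such window in a table of 24206. The motifs were the E-box CAGCTG and its other form CACCTG, the MEF2 element, the CArG box, the E2F motif TTTCCCGC with its other form TTTGGCGC, the box of letters CCAAT, the CHR element TTTGAA and the run TATAAA. The E-box CAGCTG was in 21.7% of the windows of genes that rose, 15.3% of those that fell, 15.5% of all genes tested and 15.1% of all windows in the table. The form CACCTG was in 15.9% of the windows of genes that rose, 14% of those that fell, 15.9% of all tested and 18.5% of the table. Each form was in 5 of 9 windows of the neuromuscular junction list, and in the skeletal sarcomere list CAGCTG was in 3 and CACCTG in 4 of 10. CAGCTG and CACCTG were in 7 and 6 of 22 of the Z-disc and M-band list and in 7 and 3 of 22 of the excitation-contraction coupling list. In a list of smooth muscle and stress fibre genes, most of which fell, they were in 4 and 2 of 18. The MEF2 element was in 7 of 22 windows of the Z-disc and M-band list, in 1 of 10 of the skeletal sarcomere list, in 1 of 22 of the excitation-contraction coupling list and in none of 9 of the neuromuscular junction list, with 1.29% of all tested and 3.38% of the table. It was in 3.05% of the windows of genes that rose and 0.589% of those that fell. The CArG box was in 2 of 10 windows of the skeletal sarcomere list, but in 1.07% of the windows of genes that rose, 2.06% of those that fell, 1.27% of all tested and 1.65% of the table. TATAAA, which can overlap a MEF2 element, was in 6 of 10 windows of the skeletal sarcomere list and in 6.29% of all tested. A match is a run of letters and was not tested as a binding site.

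Energy genes of muscle rose beside the contractile ones. Of 16 measured genes that handle creatine, glycogen and oxygen in muscle 12 rose and none fell, with a median log2 fold change of 1.76. Ckmt2, the mitochondrial creatine kinase of striated muscle, had no count at T0 and 123, 149 and 122 CPM at T14-RA, at least 75.1-fold higher. Ckm was at 1.38, 0 and 6.29 CPM at T0 and 54.1, 85.0 and 50.8 CPM at T14-RA. Mb, the oxygen store myoglobin, was counted in a single T0 library at 5.52 CPM and reached 136, 189.5 and 130.4 CPM. Pygm, which releases glucose from glycogen, rose from 4.14, 0 and 18.9 to 259, 287 and 246 CPM. Ca3, a carbonic anhydrase of slow muscle, was already at 1422, 1514 and 1239 CPM and rose to 6191, 6371 and 6184 CPM. The broad energy pathways moved less. Rises were called for 8 of 18 genes of the citrate cycle, 5 of 23 of fatty acid oxidation and 4 of 20 of glycolysis, against 7.83% of all genes. In glycolysis 2 of the 20 also fell, or 1 without the first T0 library or the first or second T14-RA library, and in the other two none fell. In fatty acid oxidation, Hadha and Hadhb, the trifunctional protein that cuts long chains in mitochondria, rose by 0.80 and 1.37 on the log2 scale. Of 12 regulators of mitochondrial biogenesis none rose and 2 fell, with a median log2 fold change of 0.36, and 1 fell without the first or the third library of either group. Pprc1, a coactivator, was among those that fell, by 0.99 on the log2 scale.

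Genes of DNA replication and division took a smaller share of the RNA counted at T14-RA. Of 49 measured genes of DNA replication 33 fell and none rose, with a median of −1.47 on the log2 scale. Of 47 genes of mitosis and the spindle 33 fell and none rose, with a median of −1.40. Cdt1 and Cdc6, which load the replicative helicase, fell by 2.94 and 2.77 on the log2 scale, and Cdt1 went from 93.8, 75.0 and 103 to 8.41, 17.7 and 10.2 CPM. Mcm5, a subunit of that helicase, went from 337, 355 and 342 to 75.7, 83.2 and 69.4 CPM, a log2 fold change of −2.18 (SE 0.14). Mki67, which coats mitotic chromosomes and marks dividing cells, went from 746, 537 and 869.9 to 203, 198 and 198 CPM. Anln, a scaffold of the cleavage furrow, went from 247, 257 and 298 to 48.0, 51.4 and 67.7 CPM. Each of these 5 genes was still counted in every T14-RA library, where DNA replication genes still held 0.214% ± 0.0102 (SD, n = 3) of all counts, against 0.547% ± 0.0162 at T0.

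Genes that govern entry into the cell cycle moved both ways. Of 30 measured G1 cyclins, kinases and cell cycle inhibitors 7 rose and 6 fell. Cdkn1a, the p21 inhibitor of cyclin-dependent kinases, rose from 179, 137 and 172 to 360.3, 356 and 359 CPM, and Cdkn2b, the p15 inhibitor, from 27.6, 30.0 and 18.9 to 81.7, 67.3 and 91.4 CPM. Gadd45a, a stress gene that restrains growth, rose from 22.1, 33.8 and 18.9 to 192, 179 and 191 CPM. Ccnd3, a D-type cyclin that is kept in differentiated muscle, rose by 0.76 on the log2 scale. Rbl1, the p107 member of the retinoblastoma family and itself a known E2F target, fell from 46.9, 43.2 and 41.9 to 7.21, 5.31 and 0 CPM. Ccng1, which encodes cyclin G1, also rose.

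The promoters of Mcm5 and Mki67 are shown because E2F factors bind many replication genes and the DREAM complex binds the CHR element of many mitotic genes. The Mcm5 bases lie on the plus strand at chr19:13488563-13488812, with E2F motifs of the forms TTTCCCGC and TTTGGCGC and CCAAT boxes in capitals. The Mki67 bases lie on the minus strand at chr1:199952594-199952843, with the CHR element TTTGAA and CCAAT boxes in capitals. Where the last CHR runs on in capitals, it meets a CCAAT box on the other strand.
Mcm5: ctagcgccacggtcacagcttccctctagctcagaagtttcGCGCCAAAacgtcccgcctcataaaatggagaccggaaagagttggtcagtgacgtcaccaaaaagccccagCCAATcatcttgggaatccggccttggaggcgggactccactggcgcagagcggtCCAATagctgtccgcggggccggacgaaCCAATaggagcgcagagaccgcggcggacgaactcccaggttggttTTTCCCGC
Mki67: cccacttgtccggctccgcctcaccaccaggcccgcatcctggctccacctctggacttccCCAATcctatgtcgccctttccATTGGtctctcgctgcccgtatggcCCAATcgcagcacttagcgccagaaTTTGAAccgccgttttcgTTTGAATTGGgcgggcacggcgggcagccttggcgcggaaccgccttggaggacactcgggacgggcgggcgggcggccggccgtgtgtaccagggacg

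TTTGAA was in 30 of 40 windows of the mitosis list, which is 75%, in 11.6% of all genes tested and in 18.1% of the table. CCAAT was in 75% of the mitosis windows and 61% of the DNA replication windows, against 38.2% of all tested and 37.8% of the table. TTTGGCGC was in 9 of 41 windows of DNA replication genes in 1.01% of all tested, in 0.516% of the table and in 1 of 40 of the mitosis list. TTTCCCGC was in 7 of 41 windows of DNA replication genes, in 2.27% of all tested and in 1.07% of the table. These shares describe the windows and carry no test.

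Genes of sterol synthesis rose together. Of 25 measured genes of cholesterol synthesis and uptake 18 rose and none fell, with a median log2 fold change of 1.15. Hmgcs1, which makes the precursor of mevalonate, rose from 169.7, 176 and 195 to 622, 558 and 586 CPM, a log2 fold change of 1.72 (SE 0.12). Idi1, an isomerase later in the pathway, rose from 26.2, 31.9 and 12.6 to 113, 113 and 96.5 CPM. Insig1, the sterol sensor that holds SREBP in the endoplasmic reticulum and is itself a target of SREBP, rose from 67.6, 60.0 and 69.2 to 253, 260.4 and 261 CPM. Sqle, the first oxygenation step, rose from 222, 203 and 166 to 442, 455 and 430.1 CPM. Abca1, which exports cholesterol and is known to be switched on by liver X receptors, had the largest change in the list, from 6.90, 5.63 and 4.19 to 126, 95.6 and 94.8 CPM. Of 13 genes of fatty acid synthesis 5 rose and none fell. Scd2, a desaturase that makes monounsaturated fatty acids, rose from 705, 717 and 612 to 4240.1, 3811 and 4105 CPM and its relative Scd from 52.4, 71.3 and 48.2 to 589.8, 466 and 528 CPM. These paralogs are close in sequence, and their split is uncertain. Acacb, the acetyl-CoA carboxylase at the mitochondrial surface, had no count at T0 and reached 40.8, 26.6 and 38.9 CPM.

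The promoter of Hmgcs1 is shown because the factor NF-Y, which binds CCAAT boxes, acts beside SREBP at sterol genes. CCAAT was in 14 of 17 windows of the cholesterol list, which is 82.4%, against 38.2% of all tested. It was also in 12 of 18 windows of the smooth muscle and stress fibre list and in 11 of 22 of the excitation-contraction coupling list. The 250 bases lie on the plus strand at chr2:53382054-53382303, with capitals for the CCAAT boxes, read on the other strand as ATTGG.
Hmgcs1: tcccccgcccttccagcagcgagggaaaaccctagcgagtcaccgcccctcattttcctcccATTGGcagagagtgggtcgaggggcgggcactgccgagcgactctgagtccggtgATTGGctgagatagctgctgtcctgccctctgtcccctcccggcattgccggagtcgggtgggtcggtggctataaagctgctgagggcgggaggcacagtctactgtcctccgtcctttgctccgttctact

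Genes of actin stress fibres and smooth muscle, which build contractile bundles in spreading cells, fell together. Of 26 measured genes 18 fell and Tpm2 rose, with a median log2 fold change of −1.05. The list held 4.72% ± 0.116 (SD, n = 3) of all counts at T0 and 2.05% ± 0.0137 at T14-RA. Acta2, the smooth muscle actin that also marks activated fibroblasts, had the largest fall in mean CPM of all called genes, from 12716, 12990.5 and 12347 to 2473, 2534 and 2486 CPM, a log2 fold change of −2.34 (SE 0.09). The collagen gene Col1a1 was next, with means of 29893 ± 6673 (SD, n = 3) and 20184 ± 104 CPM, and its order with Acta2 depends on single T0 libraries. Cnn1, a calponin that binds actin in smooth muscle, fell from 368, 525 and 308 to 69.7, 70.8 and 52.5 CPM. Flna, the crosslinker filamin A, fell from 10616, 8694 and 11104 to 3554, 2800.2 and 3275 CPM. Tagln, the transgelin of smooth muscle, and Vim, the intermediate filament vimentin, fell by 1.81 and 1.00 on the log2 scale. Actb, the beta-actin often used as a loading control, fell from 10629, 10345 and 10571 to 4219.7, 4058 and 4155 CPM, a log2 fold change of −1.34 that was −0.42 and not called on quantile-normalized counts (adjusted p = 0.0398 in limma). Tpm2, a tropomyosin used by both smooth and striated muscle, rose from 767, 1066 and 748 to 1882, 2233 and 2051 CPM.

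Of 20 measured genes known as targets of YAP, the effector of the Hippo pathway that answers to tension and cell density, 13 fell and 2 rose. Ccn1 and Ccn2, secreted matricellular proteins, fell from 1033, 991 and 1019 to 149, 128 and 129 CPM and from 1764, 1764 and 1715 to 516, 561 and 544 CPM. Ankrd1, often used as a readout of YAP, went the other way, from 1873, 2030.0 and 1687 to 3396, 3381 and 3272 CPM. It also belongs to the cardiac sarcomere list, as a muscle stretch protein. Gadd45a was the other gene of the list that rose.

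In the extracellular matrix more genes fell than rose. Of 40 measured genes of fibrillar collagens and matrix processing 21 fell and 5 rose, and of 14 basement membrane genes 7 fell and 1 rose, which without the second T0 library was not called. Eln, the elastic fibre protein elastin, fell from 3511, 3234 and 3970.2 to 646, 705 and 638 CPM, a log2 fold change of −2.43 (SE 0.10). Thbs1, a matrix glycoprotein that activates TGF-beta, fell from 8477, 7330.1 and 9173 to 2482, 2265 and 2479 CPM, whereas its relative Thbs2 rose from 1.38, 9.38 and 8.38 to 327, 312 and 266 CPM. Fn1, the adhesive glycoprotein fibronectin, and Serpinh1, the chaperone of collagen folding, fell by 0.69 and 1.05 on the log2 scale. On quantile-normalized counts the changes of Fn1 and Col1a1 were 0 and neither was called. That scaling gives genes of the same rank the same value. A change of 0 thus reflects an unchanged rank and cannot decide whether the level of these genes fell. Col1a1, a chain of the main collagen of connective tissue, was at 28105, 24296 and 37279 CPM at T0 and 20289.9, 20081 and 20179.6 CPM at T14-RA. It fell by 0.57 on the log2 scale, which passed narrowly (adjusted p = 0.000975 in edgeR), and leaving out any 1 of the T14-RA libraries ended the call (adjusted p between 0.00360 and 0.00536). Col3a1, the collagen of pliable tissue, rose from 2978, 2799 and 3308 to 7920.4, 8248 and 7928 CPM. Dcn and Lum, small proteoglycans that space collagen fibrils, had no count at T0 and were at 56.5, 42.5 and 52.5 and 30.0, 30.1 and 25.4 CPM at T14-RA. Smoc1 and Susd5, a basement membrane protein and a membrane protein with hyaluronan-binding homology, were among the largest falls by fold. Pou2f2 and Prss35, a transcription factor of lymphocytes and a secreted serine protease, fell by 3.35 and 3.10 on the log2 scale, and Cyp1b1, a cytochrome that oxidizes steroids and retinoids, by 2.76. Sema7a, a membrane-anchored semaphorin, had 18 counts over the T0 libraries and 1 over the T14-RA libraries, 20.6-fold lower with an exact 95% interval of 3.26 to 859, and its call was lost without the first or the third T0 library or the first or the second T14-RA library (adjusted p between 0.00282 and 0.00894). Cep72 and Mis18a, a pair of weakly expressed genes of the centrosome and the centromere, lost theirs without the first or the third T14-RA library, and without the first T0 library for Cep72 and the second for Mis18a (adjusted p between 0.00132 and 0.0106). Smoc1 went from 200.0, 150.1 and 275 to 10.8, 8.86 and 11.9 CPM and Susd5 from 487, 445 and 478 to 15.6, 14.17 and 13.5 CPM.

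Dcn and Lum also stand among 5 measured fibroblast markers, of which they were the only ones called. The summed level of the 5 was 0.0237 to 0.0324% of counts at T0 and 0.0352 to 0.0373% at T14-RA, and Dcn and Lum were at 0 in all T0 libraries. Whether other cells contributed to their rise was not tested. The markers of fat, bone, endothelium, blood, epithelium and nerve were few in the table, with 1 to 3 genes each, and of these 8 genes Col10a1 rose and Tubb3 fell, and both calls narrowly missed the threshold without some single libraries. For Col10a1 these were the second and the third T0 and the first T14-RA library (adjusted p between 0.00104 and 0.00107), and for Tubb3 the first T0 and the third T14-RA library (adjusted p = 0.00137 and 0.00149).

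Of 14 measured genes of the insulin-like growth factor (IGF) system, 5 rose and 2 fell. Igf2, a growth factor that myoblasts release as they differentiate, rose from 731, 639.8 and 811 to 2928, 2954 and 2985 CPM, a log2 fold change of 2.02 (SE 0.10). Igfbp5, the IGF-binding protein known from differentiating muscle, rose from 53.8, 30.0 and 21.0 to 1392, 1199 and 1461 CPM. Igf1 rose from 4.14, 0 and 0 to 36.0, 31.9 and 18.6 CPM and Igfbp4 from 121, 131 and 134 to 569, 599 and 528 CPM. The receptor Igf1r, which passes the signal on, fell from 143, 143 and 169.8 to 76.9, 77.9 and 69.4 CPM, and its adaptor Irs2 fell by 1.07 on the log2 scale. Fgfr2, a receptor of fibroblast growth factors, fell from 129.7, 114 and 94.3 to 10.8, 19.5 and 18.6 CPM.

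In the Notch pathway, which holds back muscle differentiation, 3 of 12 measured genes fell and Notch1 rose. The ligand Jag1 fell from 189, 218 and 249 to 64.9, 77.9 and 77.9 CPM, and Lfng, a glycosyltransferase that tunes the receptors, from 175, 141 and 151 to 50.4, 42.5 and 49.1 CPM. Of 24 immediate early and serum response genes 2 rose and 3 fell, against 7.83% risen and 7.84% fallen of all genes, and without the first T14-RA library none rose and 2 fell. Without the first or the third T0 library 1 rose and 1 fell, and without the second T14-RA library 2 rose and 1 fell. Klf2, a factor that answers to flow and stretch, fell by 2.03 on the log2 scale.

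Lysosome genes rose with small changes in many members. Of 32 measured genes of the lysosome and autophagy 16 rose and none fell, with a median log2 fold change of 0.67. Ctsd, the protease cathepsin D, rose from 893, 904 and 757 to 2226, 2198 and 2215 CPM, and Lamp1, a membrane protein of the lysosome, from 763, 854 and 763 to 1507, 1566 and 1536 CPM. Bnip3, a receptor for the removal of mitochondria, rose from 23.5, 11.3 and 23.1 to 85.3, 117 and 105 CPM. Of 17 genes of the interferon response and of antigen presentation 3 rose and 1 fell, and B2m, the light chain of class I molecules, rose from 218, 188 and 169.8 to 830.0, 770.4 and 729.8 CPM. Of 28 genes of amino acid supply and endoplasmic reticulum stress 9 fell and 2 rose, among them Slc7a5, an importer of large amino acids, which fell from 480.1, 497 and 539 to 285, 209 and 224 CPM. Without the third T14-RA library 5 of the 28 fell.

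Calls in the protein synthesis machinery are set against 7.83% risen and 7.84% fallen of all genes. Of 73 measured entries of cytosolic ribosomal protein genes 4 rose (5.48%) and 1 fell (1.37%). Their median log2 fold change was 0.20 and ran from 0.08 to 0.47 with 1 library left out. The T0 libraries differed in this list, with 1.98, 2.88 and 1.75% of counts against 2.48, 2.77 and 2.49% in the T14-RA libraries, and without the second T0 library, the highest, 22 of the 73 rose. Without the first or the third T0 library 2 rose, without the second T14-RA library 1 rose, and without the first T0 library 2 fell. Ribosomal protein genes have many processed copies in the genome, which makes their counts uncertain. Of 29 measured genes of ribosome biogenesis 3 fell (10.3%, near the share of all genes) and none rose, and without the third T14-RA library 1 fell. Their median log2 fold change was −0.46, and they held 0.354% ± 0.0160 (SD, n = 3) of all counts at T0 and 0.287% ± 0.00177 at T14-RA. All T14-RA libraries lay below all T0 libraries for 19 of the 29, against 19.1% of all genes, and for none did they lie above.

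**Figure D4:**
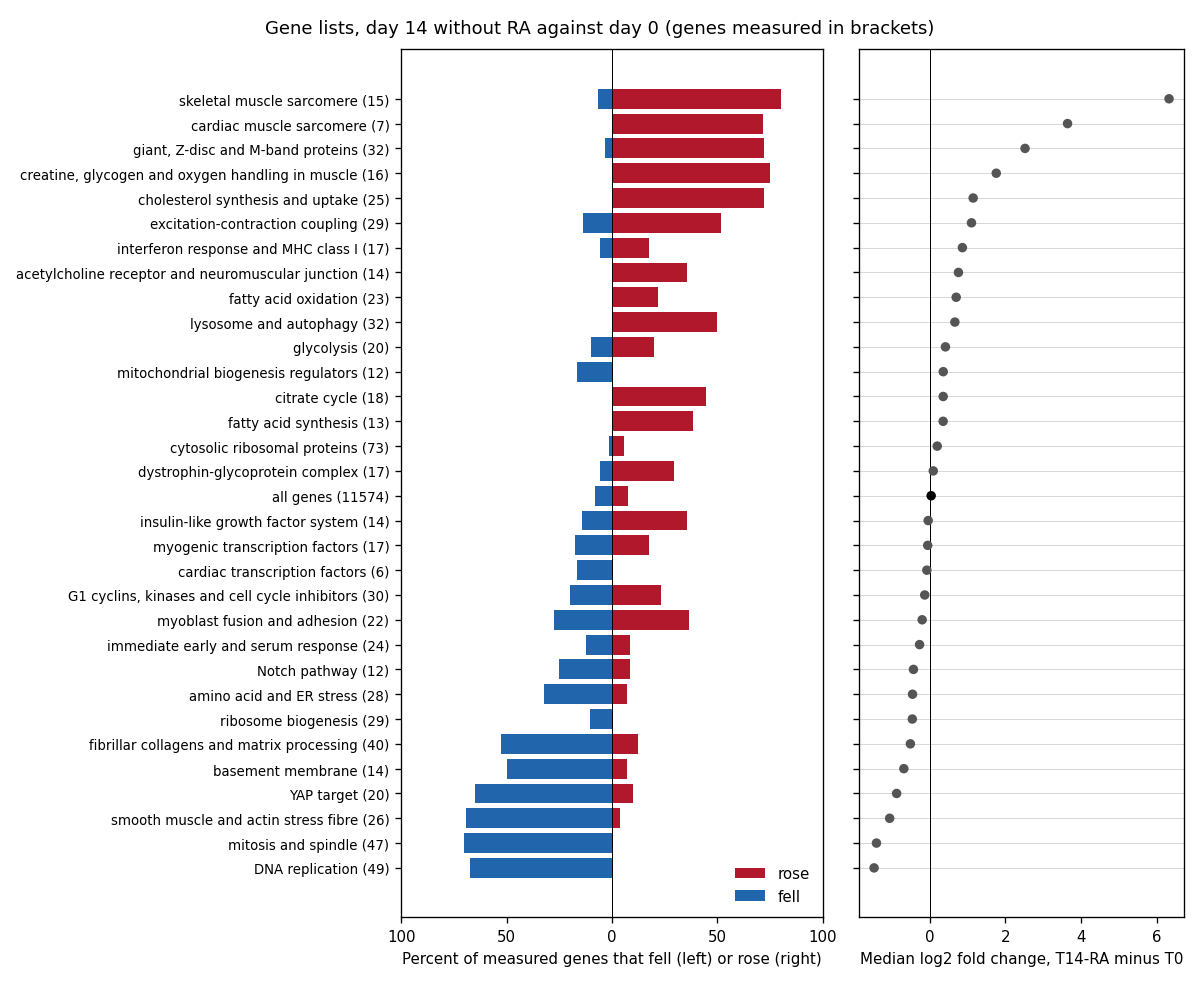
Left, the percent of measured genes in each of 31 gene lists, and in all genes, that fell (blue) or rose (red) at an adjusted p under 0.001, with the number measured in brackets; right, the median log2 fold change, T14-RA minus T0. Skeletal sarcomere genes lie at the top with a median of 6.33 and DNA replication genes at the bottom with −1.47, while all genes have 7.83% risen and 7.84% fallen.

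The cultures of day 7 without RA (T7-RA) give the level midway, measured in other cultures but against the same T0 libraries. Genes of cholesterol synthesis held 0.277% ± 0.0156 (SD, n = 3) of counts at T0, 0.634% ± 0.0112 at T7-RA and 0.590% ± 0.0153 at T14-RA, so that the higher level was present by day 7. Smooth muscle and stress fibre genes were also near their later share at T7-RA, with 2.38% ± 0.140. Skeletal sarcomere genes had 0.465% ± 0.0361 at T7-RA, far below their share at T14-RA, and DNA replication genes lay between with 0.333% ± 0.00369. Single genes differed within the muscle programme. Myog was at 436 ± 42.9 CPM at T7-RA, against 638 ± 6.56 at T14-RA. Myh3 and Scd2 show the contrast between lists. Myh3 was at 1338 ± 133 CPM at T7-RA, against 5056 ± 139 at T14-RA, while Scd2 was at 4001 ± 124 and 4052 ± 219. Mb was at 6.77 ± 2.96 CPM at T7-RA, against 152 ± 32.7 at T14-RA, and Myl1 at 3.01 ± 1.72 against 172 ± 23.2. The difference between day 7 and day 14 was not tested.

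**Figure D5:**
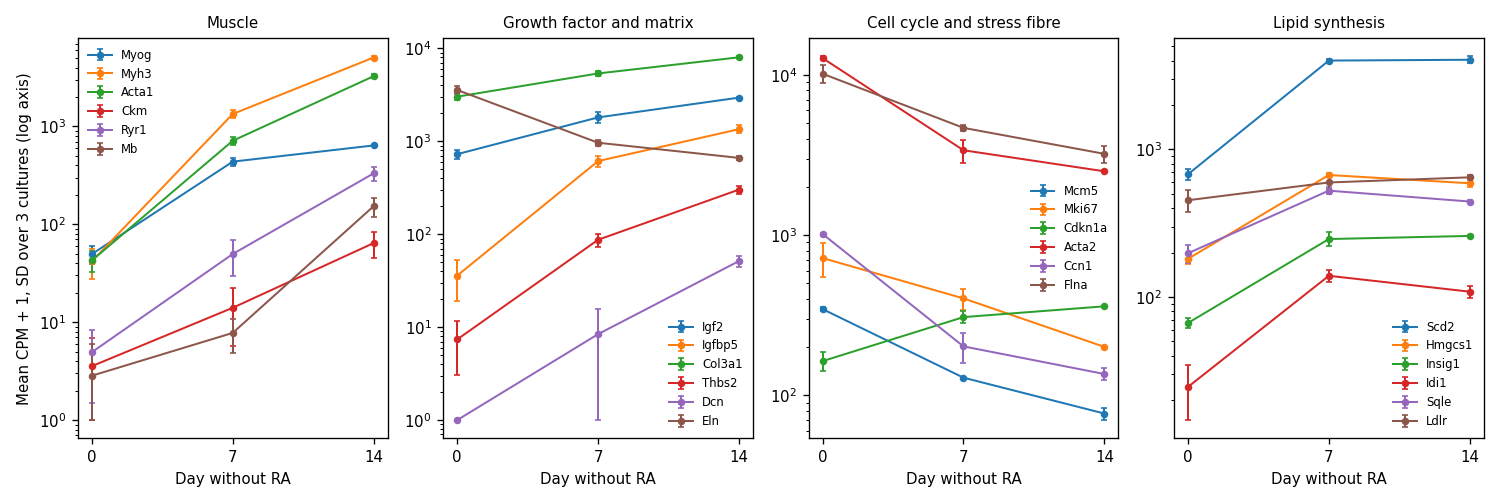
Mean CPM + 1 on a logarithmic y axis against the day without RA (0, 7 and 14), with error bars for the SD over 3 cultures that end at 0 CPM where the SD exceeds the mean. Scd2, Hmgcs1 and Insig1 stand at their higher level by day 7, while Myh3, Acta1, Ryr1 and Mb have a higher mean on day 14 than on day 7.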

How the data were processed

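Total RNA of 15 H9c2 cultures was made into poly(A) libraries with a stranded kit and sequenced as paired ends. The authors deposited 1 table of raw counts per gene, filtered to genes whose counts sum to more than 20. Per the labels, the submitters' processing notes name Rnor_6.0, HISAT2 and featureCounts, with versions, annotation release and strand setting not given in the sources used here. Read counts were used as deposited, and no column was left out for want of a sample. All 11574 genes of the 15 libraries were fitted in edgeR 4.0.16 (R 4.3.3) with TMM scaling, a mean for each of the 5 groups and robust quasi-likelihood tests. T14-RA was set against T0 with Benjamini-Hochberg adjustment and a threshold of 0.001. A group listed at 0 was given a floor of 3 counts over the group, and intervals and floors cover counting error only. Depth ran from 508397 to 823546 counts in the 6 libraries compared. The deposited gene length served for TPM.

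On simulated data with a change of 1 on the log2 scale, 58 of 200 altered genes were called and 0 of 11374 unaltered ones. The counts were drawn from the kind of model that was then fitted. The 0 therefore does not give the rate of false calls in the measured data. The genes named are the 15 largest rises and 15 largest falls by fitted fold change among called genes without overlap, the 10 largest rises and 10 largest falls in mean CPM, and members of the gene lists; some genes so chosen are not reported here. Members and lists were chosen with earlier results of these data known. The study calls its cultures biological replicates. Replicate numbers did not pair the libraries across groups. Alternatives used DESeq2 1.42.0, limma 3.58.1, other scalings, filters, models and thresholds, thinned counts and 1 library left out at a time. The share of a gene in its family from counts not divided by length was added after seeing the data. Promoter windows came from RefSeq (GRCr8), matched by symbol.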

Additional observations from a re-analysis of the deposited data

How the results depend on the processing

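The 1813 calls (906 rises, 907 falls) became 1394 with DESeq2, 1618 with limma-voom, 1739 with limma-trend and 1465 with only the 6 libraries in the fit, and none of the 1813 took the other direction in the 18 alternatives run at this threshold, with 2 (Fn1 and Col1a1) at a change of 0 in the quantile-normalized values and some left out by the 2 filters. On quantile-normalized log2 counts limma called 917 genes (521 rises, 396 falls), and 17 of the genes named lost the call. At an adjusted p under 0.05 there were 3769 (1926 rises, 1843 falls), and against a minimum log2 fold change of 1 there were 311 (200 rises, 111 falls). Leaving out 1 library at a time gave 1387 to 1754 calls, with 708 to 865 rises and 679 to 889 falls. With TMM-scaled CPM in place of the percent of counts, the ratio of T14-RA to T0 was 15.3 for skeletal sarcomere genes, 0.405 for smooth muscle, 0.365 for DNA replication and 1.98 for cholesterol synthesis; the cause is the scaling itself, since both use the same counts. With 1 library left out, the ratios of percents ran from 16.0 to 16.7, 0.431 to 0.441, 0.382 to 0.401 and 2.06 to 2.17, and from 0.693 to 0.780 for collagens. Of the 31 lists, 28 to 31 kept the side of 0 of their median, and those of myogenic and cardiac transcription factors, the IGF system and the dystrophin complex did not always. Of the 130 called genes named, 95 kept the call under all 18 and 10 more wherever a filter did not leave them out. With the replicate block, 1951 genes were called (972 rises, 979 falls), 1812 of them among the 1813, and the correlations of same-numbered libraries of T0 and T14-RA were 0.01, 0.11 and 0.02, so the numbers were not taken as pairs. Depth limits the weakly expressed genes, of which 3195 had under 10 counts on average.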

Other observations

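Genes of the interferon response and of stress hold single large changes beside many that were not called. Irf7, a master regulator of interferon genes, was at 9.66, 18.8 and 16.8 CPM at T0 and 58.9, 51.4 and 67.7 CPM at T14-RA, a rise of 2.02 on the log2 scale. Isg15 and Ifit1, effectors of the same response, were not called. Ddit4, which restrains the growth kinase mTOR, rose from 20.7, 9.38 and 12.6 to 73.3, 53.1 and 66.0 CPM, while Atf4, the factor that leads the amino acid response, was not called. Lpl, the lipase that frees fatty acids from lipoproteins, rose from 17.9, 15.0 and 18.9 to 73.3, 76.2 and 74.5 CPM. Spp1, the secreted phosphoprotein osteopontin, fell from 102, 161 and 130.0 to 48.0, 42.5 and 44.0 CPM. The groups did not overlap for any of the genes given here with their levels.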
